A study of Homo sapiens with 12 samples.

Results

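The genes described here are 51 cell cycle and proliferation genes, a list written out by symbol and matched to the Ensembl gene identifiers of the count files, whose GRCh38 coordinates are given below, out of 58381 genes counted. They were sorted by role into 8 G1 cyclins and kinases, 10 genes of the retinoblastoma (RB) and E2F pathway with its inhibitors, 14 genes of origin licensing and DNA synthesis, and 19 genes of G2 and mitosis. Poly(A) RNA was measured in VCaP-T and VCaP-CT, 2 lines of one human prostate cancer cell line, VCaP, in 4 groups of 3 libraries. The groups were VCaP-CT (passage 73) moved to 10 nM testosterone (T) for 48 h, called rechallenged VCaP-CT below, VCaP-CT kept at 0.1 nM T, VCaP-T (passage 84) moved to 0.1 nM T for 48 h, called depleted VCaP-T, and VCaP-T kept at 10 nM T. All were grown in the same base medium with charcoal-stripped serum (DCC-FBS), and VCaP-CT was raised from VCaP-T by long culture at 0.1 nM T. Each line is a single subclone, so a difference between the lines may belong to that subclone. The labels do not say whether replicates are separate cultures, so p-values measure the spread between these libraries, which may be technical.

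A dividing cell commits to replication late in G1. Cyclin D with CDK4 or CDK6 and then cyclin E with CDK2 phosphorylate RB, which releases E2F transcription factors, and these switch on the genes that license origins and copy DNA. Later, MYBL2 and FOXM1 act on the genes of G2 and mitosis, and in resting cells the DREAM complex holds both sets down. In prostate cancer cells that depend on the androgen receptor, androgen is known to drive passage from G1 into S phase.

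The libraries held 30.2 to 40.8 M counted fragments. All 10 markers of prostate luminal cells and VCaP were present in every group, and 4 blood cell markers summed to at most 2.47 normalized counts (counts scaled by TMM to the mean library) in any library. The summed level of 7 fibroblast and smooth muscle markers was 103 to 140 normalized counts in rechallenged VCaP-CT, 899 to 1013 in VCaP-CT at 0.1 nM T, 694 to 784 in depleted VCaP-T and 232 to 294 in VCaP-T at 10 nM T, and its part in the results below was not tested. Of these 7 markers 4 had a mean under 10 normalized counts in each group, COL1A2 and DCN were at 0 in both groups at 10 nM T, and PDGFRA was also at 0 in rechallenged VCaP-CT. The others disagreed. In VCaP-CT at 0.1 nM T over VCaP-T at 10 nM T the log2 fold change was 5.41 for LUM, -2.06 for COL1A1 and -0.33 for ACTA2. Medians differed there by 884 normalized counts for LUM and -149.5 for COL1A1. The sum of 4 basal epithelium markers was 112 to 133 in rechallenged VCaP-CT, 50.2 to 69.3 in VCaP-CT at 0.1 nM T, 94.3 to 156 in depleted VCaP-T and 418 to 479 in VCaP-T at 10 nM T, with at least 2 of the 4 under a mean of 10 in each group. TP63, one of them, was at 0 in rechallenged VCaP-CT, and KRT5 was at 0 in VCaP-T at 10 nM T. The sum of 4 endothelial markers was 297 to 315 in VCaP-CT at 0.1 nM T and 470 to 562 in the other groups, with KDR at 0 in all. Like the cell cycle genes, these sums differed with T or between the lines, and their part in the results was not tested either. Of the 51 genes, 50 passed the filter on low counts. The one that did not was CCND2, cyclin D2, with no more than 0.951 normalized count in any library.

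Replicate 2 of depleted VCaP-T stood apart. Its log2 levels correlated at 0.965 and 0.970 with its sister libraries, against at least 0.993 between replicates of the other groups. Its departure from its sisters ran against the exon length of the gene, with a Spearman rho of -0.674 over the 50 cell cycle genes and -0.586 over 12042 genes with a mean of at least 100 normalized counts. Libraries of the other groups gave -0.416 to 0.365 over the 50 genes. The departure ranged from a log2 difference of -1.58 for MKI67, whose exons span 12807 bases, to 0.84 for PCNA, whose exons span 1471 bases. Results are therefore also given without this library where a call or a sign changes, and for many values of the genes described singly. Since all groups share one estimate of the spread, it also moves the calls of comparisons it is not part of, and no gene of the 50 called with all libraries lost its call without it.

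**Figure D1:**
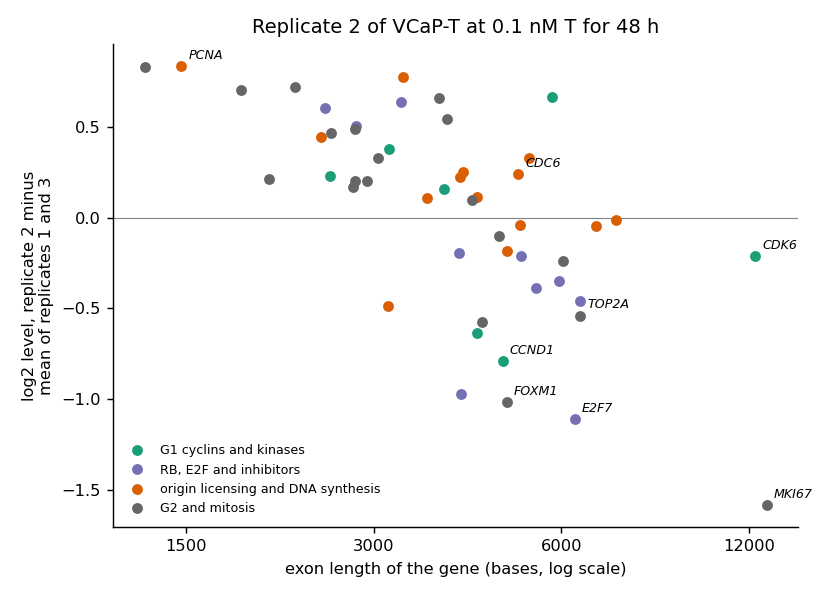
Log2 level of each of the 50 cell cycle genes in replicate 2 of depleted VCaP-T minus the mean of replicates 1 and 3, against the exon length of the gene in bases on a log scale, coloured by role. Points fall from left to right, with MKI67 (12807 bases) at -1.58 and PCNA (1471 bases) at 0.84.

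Some cell cycle genes fell in VCaP-T within 48 h of the move to 0.1 nM T. Of the 11 that fell with all libraries, 8 rose in VCaP-CT within 48 h of the move to 10 nM T. All of the 11 but MYBL2 were from the lists outside G2 and mitosis. Without replicate 2 of depleted VCaP-T many genes of G2 and mitosis fell too. On depletion 11 of the 50 genes fell and 1 rose at an adjusted p under 0.01, where 3.83% of all 19162 genes tested fell and 6.15% rose. The genes that fell were CDC25A, CDC6, MCM4, CDK2, E2F3, CDK6, MCM3, CCNE2, MCM6, MYBL2 and UHRF1, and the one that rose was CDC25C. The median log2 fold change was -0.28 over the 50 genes, against 0.037 over all genes. The libraries of the groups did not overlap for 31 of the 50 on the lower side and 3 on the higher side, where 17.6% and 20.4% of all genes did so. Without replicate 2, 35 fell and 1 rose, where 12.6% of 19649 genes fell and 14.4% rose, and all 12 called with it were among them. Of the 11, CDC25A, CDC6, CDK2, CDK6, E2F3 and MCM4 passed in each of the 12 fits that left out 1 library. Fitted on the 6 VCaP-T libraries alone, only CDC25A passed. The 24 genes called lower without replicate 2 and not with it were CCND3, RB1, RBL1, E2F1, E2F2, E2F8, MCM5, MCM7, ORC1, PCNA, TYMS, RRM1, RRM2, CCNA2, CCNB1, CDK1, CDC20, PLK1, AURKA, AURKB, BUB1B, UBE2C, BIRC5 and MKI67. The sign turned without it for 4 genes, to -0.25 for CDT1, -0.049 for CDKN3, -0.27 for AURKB and -0.20 for UBE2C, against 0.047, 0.23, 0.012 and 0.13 with it.

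On rechallenge 12 of the 50 genes rose and 0 fell in edgeR's test, where 7.07% of all genes rose and 7.19% fell. They were CDC25A, RRM2, CDC6, CDK2, MCM6, MCM3, CDK6, MCM4, MCM7, MYBL2, E2F2 and AURKA. The median log2 fold change was 0.21 over the 50 genes and -0.015 over all genes, and 21 of the 50 had an unadjusted p under 0.05. DESeq2's test called 16 higher and 1 lower. The groups did not overlap for 33 genes on the higher side and 4 on the lower side, where 27.4% and 28.3% of all genes did so. Replicate 2 of depleted VCaP-T, a library of the other line, enters here through the shared spread, the joint scaling and the set of genes tested. Without it 28 rose and 4 fell, where 19% of all genes rose and 17.6% fell. No log2 fold change moved by more than 0.004. The genes then added were 16 that rose, CCND1, CCND3, CCNE2, CDK4, E2F1, E2F8, MCM5, PCNA, TYMS, RRM1, CCNB1, CDC25B, CDC20, BIRC5, FOXM1 and MKI67, and 4 that fell, CDKN1B, CDKN2C, CDC25C and TOP2A. CDC25A, CDC6, CDK2, CDK6, MCM3, MCM6 and RRM2 passed in all 12 fits without 1 library.

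Depletion and rechallenge share no library, but they were fitted in 1 model with a shared estimate of the spread, so their calls are not independent. Both called 8 genes in opposite directions, CDC25A, CDC6, CDK2, CDK6, MCM3, MCM4, MCM6 and MYBL2, which were 72.7% of the 11 that fell on depletion and 66.7% of the 12 that rose on rechallenge. Over all 19162 genes, 481 did both, 65.6% of those that fell on depletion and 35.5% of those that rose on rechallenge. Without replicate 2, 24 of the 50 did both, 68.6% of 35 and 85.7% of 28. With each comparison's own libraries CDC25A alone fell on depletion, and it also rose on rechallenge. Of the 50 genes 42 had a log2 fold change below 0 on depletion, 43 had one above 0 on rechallenge, and 45 had opposite signs in the 2 comparisons, as 68.7% of all genes did. Nothing here was tested as particular to these genes. The study also required an absolute log2 fold change above 1 and medians more than 13 normalized counts apart. By these thresholds CDK6 alone was lower on depletion and 0 were higher (0.678% and 2.46% of all genes), and CDK6 alone was higher on rechallenge and 0 were lower (1.83% and 3.3%). The list holds genes that the study itself picked from these samples, CDK6 among them, so it is not independent evidence of direction.

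**Figure D2:**
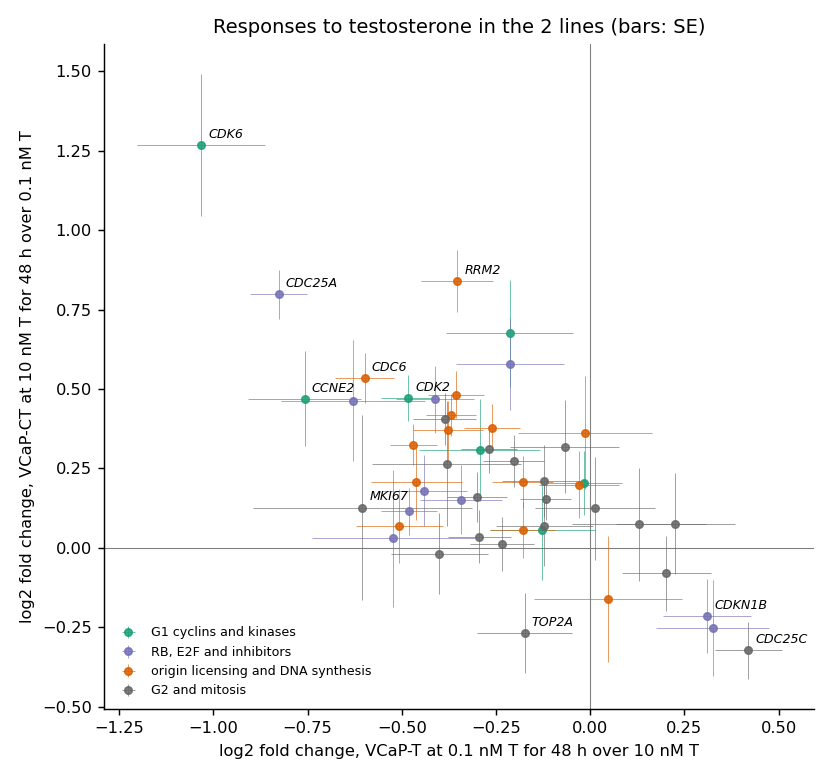
Log2 fold change on depletion of VCaP-T (0.1 nM T for 48 h over 10 nM T, horizontal) against that on rechallenge of VCaP-CT (10 nM T for 48 h over 0.1 nM T, vertical) for 50 cell cycle genes coloured by role, with bars of 1 SE and all 12 libraries. Most genes, 45 of 50, have opposite signs, with CDK6 farthest to the upper left and CDC25C at the lower right.

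**Figure D3:**
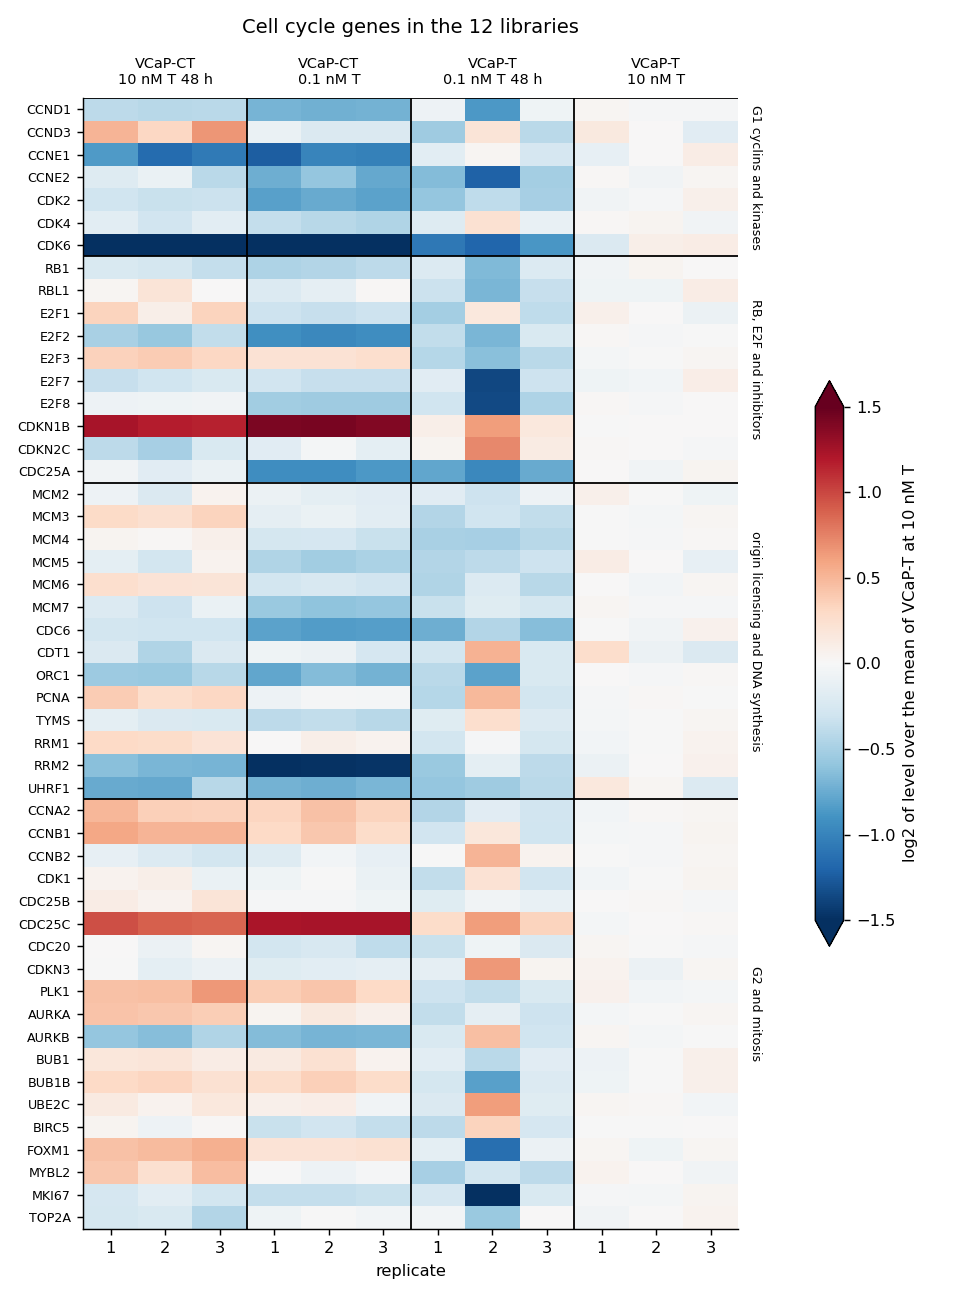
Log2 of the level of the 50 cell cycle genes in each of the 12 libraries over the mean of VCaP-T at 10 nM T, grouped by role from top to bottom, with blue lower and red higher and the scale ending at 1.5 in either direction. CDK6 and RRM2 are the darkest blue in VCaP-CT at 0.1 nM T, CDKN1B and CDC25C are the darkest red, and replicate 2 of depleted VCaP-T differs from its neighbours in many rows.

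Promoters of 40 of the 51 genes were matched in the RefSeq table for GRCh38.p14 (300 bases, from 250 before the start site to 50 after it). For each gene only the start site nearest to the 5′ end of the gene in the count files was searched. The E2F-type site TTTNNCGC, searched on both strands, was found in 8.31% of 19000 promoters, in 9 of 12 licensing and synthesis genes (75.0%), in 5 of 9 RB and E2F genes and in 1 of 15 mitotic genes (6.67%). The cell cycle genes homology region TTTGAA, searched on both strands, was found in 13.2% of all promoters, in 8 of the 15 mitotic genes (53.3%) and in 1 of the 12 licensing genes. Its variant TTTAAA, which reads the same on both strands, was found in 10.2% of all and in 4 of the 15 mitotic genes. The CCAAT box, on both strands, was in 36.2% of all promoters and in 25 of the 40 (62.5%). Of the 15 genes with an E2F-type match 6 fell on depletion (40.0%), against 2 of the 25 without one (8.0%). Without replicate 2 these counts were 13 (86.7%) and 14 (56.0%). Of all genes tested 3.83% fell with all libraries and 12.6% without replicate 2. A match is only a run of letters, and none of these comparisons was tested.

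The promoters of 3 licensing genes that moved in both comparisons are printed from 180 bases before the RefSeq start site to 20 after it, 5′ to 3′ on the gene's strand, with E2F-type matches in capitals. CDC6 lies on the plus strand at chr17:40287699-40287898, and MCM3 and MCM6 on the minus strand at chr6:52284723-52284922 and chr2:135876424-135876623. CDC25C, on the minus strand at chr5:138338336-138338535, is shown beside them as the gene that moved the other way. None of the motifs searched was found in the 300 bases around this start site, and any other start site of CDC25C was not searched.
CDC6: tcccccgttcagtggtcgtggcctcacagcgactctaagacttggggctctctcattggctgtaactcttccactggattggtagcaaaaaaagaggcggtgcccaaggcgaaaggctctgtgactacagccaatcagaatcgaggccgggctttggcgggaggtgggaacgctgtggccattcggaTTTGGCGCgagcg
MCM3: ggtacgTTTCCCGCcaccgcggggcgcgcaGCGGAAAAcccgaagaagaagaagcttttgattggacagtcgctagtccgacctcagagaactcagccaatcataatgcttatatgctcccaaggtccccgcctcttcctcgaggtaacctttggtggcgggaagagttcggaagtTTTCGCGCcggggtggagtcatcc
MCM6: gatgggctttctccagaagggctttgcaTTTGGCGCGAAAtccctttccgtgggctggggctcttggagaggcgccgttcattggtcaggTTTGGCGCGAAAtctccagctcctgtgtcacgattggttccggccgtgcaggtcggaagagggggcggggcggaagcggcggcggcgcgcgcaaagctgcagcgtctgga
CDC25C: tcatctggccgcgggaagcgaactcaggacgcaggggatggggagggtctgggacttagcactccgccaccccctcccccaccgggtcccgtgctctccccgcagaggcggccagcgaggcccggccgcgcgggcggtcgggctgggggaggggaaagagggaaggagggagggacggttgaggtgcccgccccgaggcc
These start sites lie 0 bases (CDC25C) to 246 bases (CDC6) from the 5′ end of the gene in the count files. CDC6 holds 1 match, MCM3 holds 3, and MCM6 holds 4 that overlap in pairs, since its run of capitals reads as a match on either strand. The promoter of MYBL2, the mitotic gene that fell on depletion, held none of these motifs in the form searched. Each motif was searched as an exact pattern, so a site that departs from it was not counted, in MYBL2 or in the promoters printed.

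Among the G1 cyclins and kinases, 3 of the 7 tested fell on depletion (CDK2, CDK6 and CCNE2, median log2 fold change -0.29) and 2 rose on rechallenge (CDK2 and CDK6, median 0.47), where 3.83% of all genes fell and 7.07% rose. Without replicate 2, 4 fell on depletion, with CCND3 added, and 6 rose on rechallenge, all but CCNE1 (12.6% and 19% of all genes). Between the lines in their own medium, VCaP-CT at 0.1 nM T over VCaP-T at 10 nM T, 6 of the 7 were lower in VCaP-CT and 0 higher (15.7% and 14.8% of all genes), with a median of -0.71 and all 7 values below 0. The same 6 were lower without replicate 2, where 26.7% of all genes were. Per kilobase of exon, cyclin D1 stood far above the rest of the list, with CDK4 next and CDK2 after it. The exon lengths include stretches shared with other genes, where fragments were not counted. These were 43.2% for CDK4, 37.1% for CCNE2 and 16.8% for CDK2, so these levels are uncertain. In VCaP-T at 10 nM T the mean level was 6424 normalized counts per kb for CCND1, 1826 for CDK4, 955 for CDK2, 238 for CCNE2, 144 for CCND3, 42.8 for CCNE1 and 12.1 for CDK6. CDK6 was thus the rarest kinase of the list while having its widest fold changes.

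CDK6 (ENSG00000105810.9, chromosome 7, 92604921 to 92836594), a cyclin D partner that phosphorylates RB, had 46.8, 47.8 and 32.0 normalized counts in rechallenged VCaP-CT, 14.5, 19.9 and 18.03 in VCaP-CT at 0.1 nM T, 70.9, 65.4 and 81.5 in depleted VCaP-T and 128, 158 and 160.1 in VCaP-T at 10 nM T. No library of VCaP-CT reached the lowest of VCaP-T, and the 4 groups did not overlap. The log2 fold change was -1.03 ± 0.17 (SE) on depletion (adjusted p = 0.00139, and -0.98 ± 0.16 with adjusted p = 8.42e-05 without replicate 2) and 1.27 ± 0.22 on rechallenge (adjusted p = 0.00136). Between the lines it was -3.09 ± 0.20 in their own medium (adjusted p = 1.68e-07), -2.05 ± 0.21 at 0.1 nM T (adjusted p = 9.77e-06) and -1.82 ± 0.18 at 10 nM T (adjusted p = 1.01e-05). CDK6 met the study's thresholds in each of these 5 comparisons.

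CDK4 (ENSG00000135446.16, chromosome 12, 57747727 to 57756013), the other cyclin D kinase, had 5165, 4744 and 5199 normalized counts in rechallenged VCaP-CT, 4528, 4342 and 4236 in VCaP-CT at 0.1 nM T, 5060.2, 6763 and 5349 in depleted VCaP-T and 5844, 5933 and 5577 in VCaP-T at 10 nM T. Its log2 fold change was -0.015 ± 0.10 on depletion (adjusted p = 0.926), and -0.15 ± 0.051 without replicate 2 (adjusted p = 0.0228), neither of which passed. VCaP-CT at 0.1 nM T held the 3 lowest libraries and depleted replicate 2 was the highest. It was lower in VCaP-CT in their own medium (log2 fold change -0.41 ± 0.10, adjusted p = 0.00626) and at 0.1 nM T (-0.39 ± 0.10, adjusted p = 0.00809, and -0.25 ± 0.051 without replicate 2). Of its exon length 43.2% overlaps another gene, TSPAN31, and fragments in an overlap were not counted, so its level is uncertain. Overlaps with other genes also take 8.94% (MCM7) to 26.2% (TYMS) of the exon length of CCND1, CDK2, MCM7, TYMS, RRM2, CCNA2, CDC25C, PLK1, BUB1B and FOXM1.

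CCND1 (ENSG00000110092.3, chromosome 11, 69641087 to 69654474), cyclin D1, had 23692, 23275 and 23408 normalized counts in rechallenged VCaP-CT, 19063, 18831 and 18934 in VCaP-CT at 0.1 nM T, 29375, 17025 and 29554 in depleted VCaP-T and 31760.5, 30742 and 30583 in VCaP-T at 10 nM T. Depleted replicate 2 lay far below its sisters, which lay close to VCaP-T at 10 nM T. The log2 fold change on depletion was -0.29 ± 0.16 (adjusted p = 0.212) and -0.076 ± 0.036 without that library (adjusted p = 0.105). On rechallenge it was 0.31 ± 0.16 (adjusted p = 0.195, or adjusted p = 2.58e-07 without depleted replicate 2), and the groups did not overlap. Between the lines in their own medium it was -0.71 ± 0.16 (adjusted p = 0.00346), with CCND1 lower in VCaP-CT. CCND3, cyclin D3, passed in none of these comparisons, with log2 fold changes of -0.21 on depletion and 0.67 on rechallenge, and without replicate 2 it fell on depletion (-0.47, adjusted p = 0.00103) and rose on rechallenge.

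CCNE1 (ENSG00000105173.13, chromosome 19, 29811898 to 29824308), cyclin E1, had 60.3, 48.8 and 52.3 normalized counts in rechallenged VCaP-CT, 46.2, 54.9 and 54.1 in VCaP-CT at 0.1 nM T, 97.6, 111 and 91.8 in depleted VCaP-T and 99.8, 109 and 118 in VCaP-T at 10 nM T. Every VCaP-CT library lay below every VCaP-T library, and within each line the 2 groups overlapped. Its log2 fold change between the lines was -1.08 ± 0.14 in their own medium (adjusted p = 8.17e-05), -0.95 ± 0.15 at 0.1 nM T (adjusted p = 0.000253, and -0.88 ± 0.15 without replicate 2) and -1.02 ± 0.15 at 10 nM T (adjusted p = 0.000176). On depletion it was -0.13 ± 0.14 (adjusted p = 0.538) and on rechallenge 0.055 ± 0.15 (adjusted p = 0.851).

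CCNE2 (ENSG00000175305.17, chromosome 8, 94879770 to 94896678), cyclin E2, had 918, 976 and 795 normalized counts in rechallenged VCaP-CT, 628, 700.5 and 613 in VCaP-CT at 0.1 nM T, 669, 451 and 734 in depleted VCaP-T and 1064, 1009.7 and 1069.6 in VCaP-T at 10 nM T. Every library at 10 nM T lay above every library at 0.1 nM T. It fell on depletion (log2 fold change -0.76 ± 0.15, adjusted p = 0.00426), with -0.58 ± 0.083 without replicate 2 (adjusted p = 2.17e-05), the lowest of its libraries. On rechallenge the value was 0.47 ± 0.15 (adjusted p = 0.0399). Between the lines in their own medium it was -0.69 ± 0.15 (adjusted p = 0.00258), and at 0.1 nM T it was 0.063 ± 0.15 (adjusted p = 0.763), and -0.11 ± 0.085 without replicate 2 (adjusted p = 0.274). The call on depletion was lost without any 1 of the libraries of VCaP-T at 10 nM T. Of its exon length 37.1% overlaps other genes.

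CDK2 (ENSG00000123374.10, chromosome 12, 55966769 to 55972784), the cyclin E kinase, had 3014, 2944 and 2982 normalized counts in rechallenged VCaP-CT, 2119, 2201 and 2127 in VCaP-CT at 0.1 nM T, 2492, 2857 and 2631 in depleted VCaP-T and 3574, 3661 and 3923 in VCaP-T at 10 nM T. The 4 groups did not overlap. It fell on depletion (log2 fold change -0.48 ± 0.072, adjusted p = 0.000689, and -0.54 ± 0.051 without replicate 2) and rose on rechallenge by 0.47 ± 0.072 (adjusted p = 0.000501). It was lower in VCaP-CT in their own medium (-0.79 ± 0.072, adjusted p = 3.15e-06), at 0.1 nM T (-0.31 ± 0.072, adjusted p = 0.00439, and -0.25 ± 0.051 without replicate 2) and at 10 nM T (-0.32 ± 0.071, adjusted p = 0.00383).

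**Figure D4:**
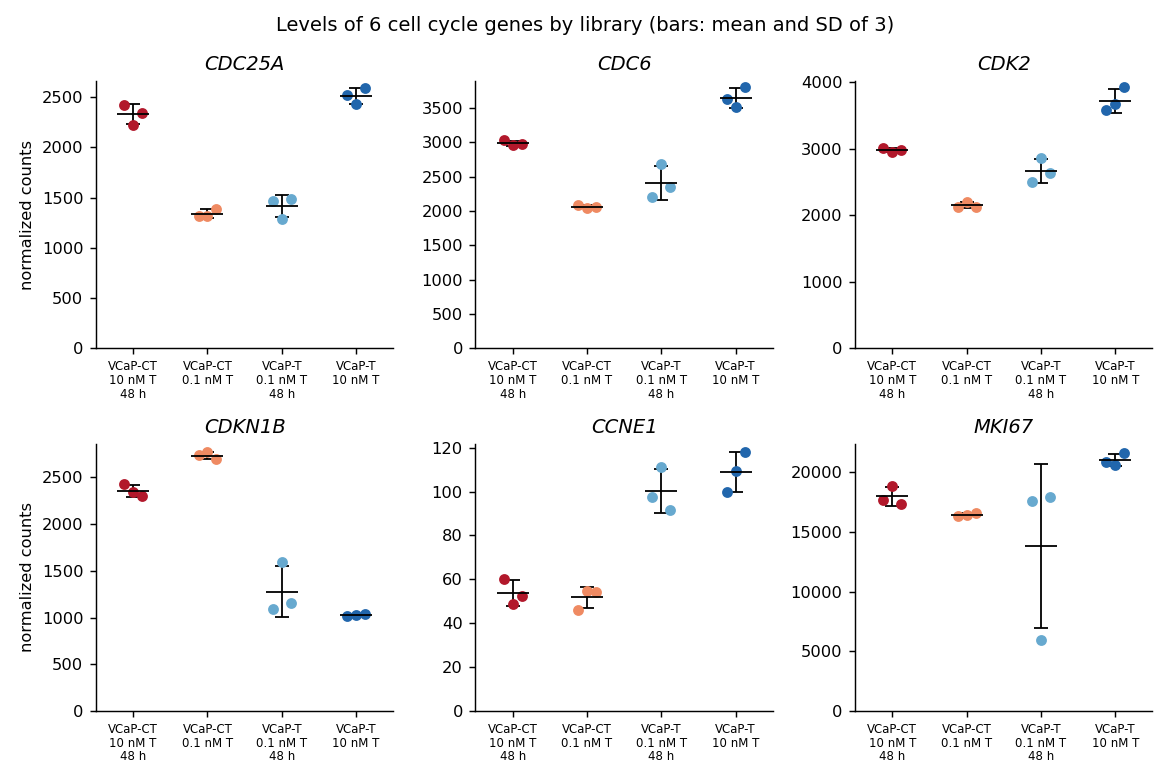
Normalized counts of 6 cell cycle genes in each library (points) with the mean and SD of the 3 libraries of a group (black), for rechallenged VCaP-CT, VCaP-CT at 0.1 nM T, depleted VCaP-T and VCaP-T at 10 nM T from left to right, each axis starting at 0. In both lines CDC25A, CDC6 and CDK2 are lower in the group at 0.1 nM T, CDKN1B and CCNE1 separate the lines, and MKI67 in depleted VCaP-T holds 1 library far below the others.

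Of the 10 RB and E2F pathway genes, 2 fell on depletion (CDC25A and E2F3, median -0.43) and 2 rose on rechallenge (CDC25A and E2F2, median 0.17). Of all genes 3.83% fell on depletion and 7.07% rose on rechallenge. Without replicate 2 the counts were 7 and 4 (12.6% and 19% of all genes), and 2 fell on rechallenge, CDKN1B and CDKN2C (17.6%). Between the lines in their own medium 1 was higher in VCaP-CT, CDKN1B, and 3 were lower, CDC25A, E2F2 and RB1 (14.8% and 15.7% of all genes). Without replicate 2 these counts were 2 and 6 (26.7% and 26.7% of all genes).

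CDC25A (ENSG00000164045.11, chromosome 3, 48157146 to 48188402), the phosphatase that removes inhibitory phosphates from CDK2, had 2427, 2228 and 2341 normalized counts in rechallenged VCaP-CT, 1314, 1319 and 1389 in VCaP-CT at 0.1 nM T, 1471, 1292 and 1489 in depleted VCaP-T and 2523, 2431 and 2591 in VCaP-T at 10 nM T. Libraries at 10 nM T and at 0.1 nM T formed separate ranges, whichever the line. It fell on depletion (log2 fold change -0.83 ± 0.076, adjusted p = 2.1e-05, and -0.77 ± 0.055 without replicate 2, adjusted p = 3.7e-09), and rose on rechallenge by 0.80 ± 0.076 (adjusted p = 1.49e-05). Between the lines it was lower in VCaP-CT in their own medium, with -0.91 ± 0.076 (adjusted p = 1.61e-06). At matched T the values were -0.081 ± 0.076 at 0.1 nM (adjusted p = 0.421, 95% interval [-0.25 to 0.085]) and -0.11 ± 0.076 at 10 nM (adjusted p = 0.283, 95% interval [-0.27 to 0.055]), neither of which passed.

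CDKN1B (ENSG00000111276.10, chromosome 12, 12715058 to 12722371) encodes p27, an inhibitor of cyclin E with CDK2, and had the highest log2 fold change of the 50 genes in each comparison between the lines. It had 2428, 2339 and 2299 normalized counts in rechallenged VCaP-CT, 2737, 2769.7 and 2693 in VCaP-CT at 0.1 nM T, 1091, 1590.5 and 1153 in depleted VCaP-T and 1022, 1031 and 1037 in VCaP-T at 10 nM T. All 6 VCaP-CT libraries lay above all 6 VCaP-T libraries, and it was higher in VCaP-CT by 1.41 ± 0.12 on the log2 scale in their own medium (adjusted p = 1.62e-06), 1.10 ± 0.12 at 0.1 nM T (adjusted p = 1.43e-05, and 1.29 ± 0.052 without replicate 2) and 1.19 ± 0.12 at 10 nM T (adjusted p = 9.14e-06). CDKN1B met the study's thresholds in each of these 3 comparisons. On depletion the value was 0.31 ± 0.12 (adjusted p = 0.0805), and 0.12 ± 0.053 without replicate 2 (adjusted p = 0.0829). On rechallenge it was -0.21 ± 0.12 (adjusted p = 0.212), a difference that passed without that library (adjusted p = 0.000523).

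RB1 (ENSG00000139687.14, chromosome 13, 48303726 to 48599436), the retinoblastoma protein that holds E2F factors, had 1558, 1515 and 1426 normalized counts in rechallenged VCaP-CT, 1321, 1338 and 1388 in VCaP-CT at 0.1 nM T, 1574, 1147 and 1578 in depleted VCaP-T and 1757, 1872 and 1833 in VCaP-T at 10 nM T. VCaP-T at 10 nM T held the 3 highest libraries and depleted replicate 2 was the lowest. It was lower in VCaP-CT in their own medium (log2 fold change -0.43 ± 0.11, adjusted p = 0.00681). On depletion it gave -0.34 ± 0.11 (adjusted p = 0.0423) with all libraries and -0.21 ± 0.055 (adjusted p = 0.00514) without replicate 2, where the smaller fold change passed. The rechallenge value was 0.15 ± 0.11 (adjusted p = 0.358).

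E2F1 (ENSG00000101412.12, chromosome 20, 33675683 to 33686404), an activating E2F factor, had 4626, 3899 and 4639.7 normalized counts in rechallenged VCaP-CT, 2971, 2896 and 2949 in VCaP-CT at 0.1 nM T, 2585, 4098 and 2821 in depleted VCaP-T and 3862, 3698 and 3450.5 in VCaP-T at 10 nM T. Replicate 2 of depleted VCaP-T lay above its sisters and above VCaP-T at 10 nM T. The log2 fold change on depletion was -0.21 ± 0.14 (adjusted p = 0.313) with it and -0.44 ± 0.069 (adjusted p = 5.62e-05) without it. On rechallenge it was 0.58 ± 0.14 (adjusted p = 0.0119, just short of the threshold), and the groups did not overlap.

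E2F2 (ENSG00000007968.6, chromosome 1, 23506430 to 23531220), another activating factor, had 1458, 1383 and 1583 normalized counts in rechallenged VCaP-CT, 1082, 1047 and 1069.9 in VCaP-CT at 0.1 nM T, 1585, 1273 and 1753 in depleted VCaP-T and 2065, 2028 and 2046 in VCaP-T at 10 nM T. VCaP-T at 10 nM T held the 3 highest libraries and VCaP-CT at 0.1 nM T the 3 lowest. It rose on rechallenge by 0.47 ± 0.10 on the log2 scale (adjusted p = 0.00637) and gave -0.41 ± 0.10 on depletion (adjusted p = 0.0154, and -0.30 ± 0.061 with adjusted p = 0.00082 without replicate 2). E2F2 was lower in VCaP-CT, with log2 fold changes of -0.94 ± 0.10 in their own medium (adjusted p = 1.73e-05), -0.53 ± 0.10 at 0.1 nM T (adjusted p = 0.0015, and -0.64 ± 0.062 without replicate 2) and -0.47 ± 0.10 at 10 nM T (adjusted p = 0.00346). E2F3, the third activating factor, was higher in VCaP-CT at matched T.

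E2F3 (ENSG00000112242.14, chromosome 6, 20401906 to 20493715) had 6966, 7167 and 6802 normalized counts in rechallenged VCaP-CT, 6384, 6399.9 and 6549.8 in VCaP-CT at 0.1 nM T, 4101, 3558 and 4153 in depleted VCaP-T and 5396, 5494 and 5598 in VCaP-T at 10 nM T. It fell on depletion (log2 fold change -0.48 ± 0.073, adjusted p = 0.000824, and -0.42 ± 0.042 without replicate 2) and gave 0.11 ± 0.073 on rechallenge (adjusted p = 0.294). It was higher in VCaP-CT by 0.71 ± 0.073 at 0.1 nM T (adjusted p = 1.09e-05, and 0.65 ± 0.042 without replicate 2) and 0.34 ± 0.073 at 10 nM T (adjusted p = 0.00276), and its 0.23 ± 0.073 in their own medium did not pass (adjusted p = 0.0233). Without replicate 2 the value in their own medium passed too (adjusted p = 2.39e-05). Depleted VCaP-T thus had the lowest E2F3 of the 4 groups, without overlap.

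The other 4 genes of this list passed in no comparison with all libraries. On depletion the log2 fold changes were -0.44 for RBL1, the RB relative p107, -0.52 for E2F7 and -0.63 for E2F8, both repressors of the E2F family, and 0.32 for CDKN2C, an inhibitor of CDK4 and CDK6. Without replicate 2, E2F8 (-0.38, adjusted p = 0.000125) and RBL1 (-0.34, adjusted p = 0.00315) passed, and E2F7 (-0.24, adjusted p = 0.0108) and CDKN2C (0.079, adjusted p = 0.418) did not.

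Among the 14 licensing and synthesis genes, 5 fell on depletion (CDC6, MCM3, MCM4, MCM6 and UHRF1), 0 rose, and the median log2 fold change was -0.36. Without replicate 2, 12 fell and none of the 14 values was above 0. On rechallenge 6 rose (RRM2, CDC6, MCM6, MCM3, MCM4 and MCM7), with a median of 0.34 and 13 of 14 values above 0, and 10 rose without that library. Of all genes 3.83% fell and 6.15% rose on depletion, and 7.07% rose on rechallenge. Without replicate 2, 12.6% fell on depletion and 19% rose on rechallenge. Between the lines in their own medium 8 were lower in VCaP-CT and 0 higher, where 15.7% of all genes were lower and 14.8% higher. At 0.1 nM T 2 were lower (RRM2 and MCM7, 14.3% against 16.4% of all genes) and 0 higher (13% of all genes). Without replicate 2, 4 were lower there (RRM2, ORC1, MCM7 and TYMS) and 5 higher (RRM1, PCNA, MCM3, MCM4 and MCM6). At 10 nM T 3 were lower (RRM2, UHRF1 and ORC1) and 1 was higher (MCM3), and without replicate 2, 6 were lower and 4 higher (PCNA, MCM3, RRM1 and MCM6). Of all genes 13.2% were lower and 12% higher at 10 nM T, or 23.2% and 24.7% without replicate 2. At 0.1 nM T 24.4% were lower and 23.2% higher without it. In their own medium 10 of the 14 genes were lower without replicate 2, where 26.7% of all genes were. The median difference between the lines was -0.34 in their own medium, -0.14 at 0.1 nM T and -0.16 at 10 nM T.

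CDC6 (ENSG00000094804.9, chromosome 17, 40287633 to 40304657), which loads the replicative helicase at origins and whose promoter is printed above, had 3028, 2960.0 and 2972 normalized counts in rechallenged VCaP-CT, 2089.7, 2047 and 2054 in VCaP-CT at 0.1 nM T, 2207, 2686 and 2345 in depleted VCaP-T and 3637, 3515 and 3806 in VCaP-T at 10 nM T. The 4 groups did not overlap, and replicate 2 of depleted VCaP-T lay above its sisters but below both groups at 10 nM T. It fell on depletion (log2 fold change -0.60 ± 0.079, adjusted p = 0.0003, and -0.69 ± 0.05 with adjusted p = 4.61e-09 without that library) and rose on rechallenge by 0.53 ± 0.079 (adjusted p = 0.000405). Between the lines it was lower in VCaP-CT in their own medium (-0.82 ± 0.079, adjusted p = 4.82e-06), with -0.22 ± 0.079 at 0.1 nM T (adjusted p = 0.0363) and -0.29 ± 0.078 at 10 nM T (adjusted p = 0.0116), which did not pass. Without replicate 2 the value at 10 nM T passed (-0.29 ± 0.043, adjusted p = 1.46e-05). That at 0.1 nM T did not (-0.14 ± 0.05, adjusted p = 0.0238).

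The MCM2 to MCM7 proteins form the helicase ring. MCM6 (ENSG00000076003.4, chromosome 2, 135839626 to 135876426) had 4941, 4769.9 and 4747 normalized counts in rechallenged VCaP-CT, 3424, 3520.4 and 3403 in VCaP-CT at 0.1 nM T, 3034, 3587 and 3107 in depleted VCaP-T and 4157, 4045 and 4247 in VCaP-T at 10 nM T. The 2 groups at 0.1 nM T overlapped and lay below both groups at 10 nM T. It fell on depletion (log2 fold change -0.36 ± 0.075, adjusted p = 0.00595, and -0.44 ± 0.044 without replicate 2) and rose on rechallenge by 0.48 ± 0.075 (adjusted p = 0.000565), to above its level in VCaP-T at 10 nM T in every library. MCM3 gave -0.37 ± 0.066 on depletion (adjusted p = 0.00237, and -0.41 ± 0.045 without replicate 2) and 0.42 ± 0.066 on rechallenge (adjusted p = 0.000674), and was higher in VCaP-CT at 10 nM T (0.29 ± 0.066, adjusted p = 0.00467). MCM4 gave -0.47 ± 0.063 on depletion (adjusted p = 0.000357, and -0.46 ± 0.042 without replicate 2) and 0.33 ± 0.063 on rechallenge (adjusted p = 0.00267).

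MCM7 (ENSG00000166508.17, chromosome 7, 100092728 to 100101940) had 12061, 11201 and 12882 normalized counts in rechallenged VCaP-CT, 9451, 9119.5 and 9252 in VCaP-CT at 0.1 nM T, 10957, 12164 and 11572 in depleted VCaP-T and 14166, 13694 and 13685 in VCaP-T at 10 nM T. VCaP-T at 10 nM T held the 3 highest libraries and VCaP-CT at 0.1 nM T the 3 lowest. It rose on rechallenge by 0.38 ± 0.074 on the log2 scale (adjusted p = 0.00281), and was lower in VCaP-CT in their own medium (-0.58 ± 0.074, adjusted p = 5.41e-05) and at 0.1 nM T (-0.32 ± 0.074, adjusted p = 0.00428, and -0.28 ± 0.05 without replicate 2). On depletion its -0.26 ± 0.074 did not pass (adjusted p = 0.0269), and without replicate 2 it did (-0.30 ± 0.051, adjusted p = 0.000131). MCM5 gave -0.38 on depletion and 0.37 on rechallenge, both just short of the threshold (adjusted p = 0.0136 and 0.0121), and both passed without replicate 2 (adjusted p = 0.000958 and 0.000247).

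MCM2 (ENSG00000073111.13, chromosome 3, 127598223 to 127622436) had the smallest log2 fold changes of the helicase genes on depletion and on rechallenge, with 6113, 5543 and 6687 normalized counts in rechallenged VCaP-CT, 6061, 5838 and 5750.3 in VCaP-CT at 0.1 nM T, 5747, 5232 and 6148 in depleted VCaP-T and 6801, 6425 and 6173 in VCaP-T at 10 nM T. All groups overlapped at least one other. Its log2 fold changes were -0.18 ± 0.088 on depletion (adjusted p = 0.164, and -0.12 ± 0.063 with adjusted p = 0.141 without replicate 2) and 0.056 ± 0.088 on rechallenge (adjusted p = 0.701). The unadjusted 95% interval on depletion was [-0.37 to 0.011].

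ORC1 (ENSG00000085840.12, chromosome 1, 52372829 to 52404459), a subunit of the origin recognition complex, had 760.5, 753 and 827 normalized counts in rechallenged VCaP-CT, 643, 705 and 678 in VCaP-CT at 0.1 nM T, 833, 632 and 941 in depleted VCaP-T and 1108, 1088 and 1120.0 in VCaP-T at 10 nM T. VCaP-T at 10 nM T held the 3 highest libraries and depleted replicate 2 was the lowest. ORC1 was lower in VCaP-CT, with log2 fold changes of -0.71 ± 0.12 in their own medium (adjusted p = 0.000481) and -0.50 ± 0.12 at 10 nM T (adjusted p = 0.00585). On depletion it gave -0.46 ± 0.12 (adjusted p = 0.0181), and -0.32 ± 0.069 without replicate 2 (adjusted p = 0.00111). CDT1, its partner in licensing, passed in no comparison, with 0.047 on depletion and -0.25 without that library.

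PCNA (ENSG00000132646.10, chromosome 20, 5114953 to 5126626), the sliding clamp of the DNA polymerases, was the gene with the greatest positive departure of replicate 2. It had 12952, 11989.6 and 12387 normalized counts in rechallenged VCaP-CT, 9468, 9842 and 9712 in VCaP-CT at 0.1 nM T, 7423, 13938 and 8219.6 in depleted VCaP-T and 9868, 10045 and 9942 in VCaP-T at 10 nM T. Replicates 1 and 3 of depleted VCaP-T were the lowest libraries of all, and replicate 2 was the highest of all. The log2 fold change on depletion was -0.014 ± 0.18 (adjusted p = 0.964) with it, and -0.35 ± 0.048 (adjusted p = 1.33e-05) without it. On rechallenge it was 0.36 ± 0.18 (adjusted p = 0.171, or adjusted p = 1e-06 without that library), and the groups did not overlap.

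RRM2 (ENSG00000171848.14, chromosome 2, 10120698 to 10131419), the regulated subunit of ribonucleotide reductase, which makes the deoxynucleotides for replication, had 2091, 2004 and 1991 normalized counts in rechallenged VCaP-CT, 1083, 1152 and 1163 in VCaP-CT at 0.1 nM T, 2197, 2918 and 2459 in depleted VCaP-T and 3045, 3248 and 3377 in VCaP-T at 10 nM T. The 4 groups did not overlap. It rose on rechallenge by 0.84 ± 0.098 on the log2 scale (adjusted p = 6.97e-05), the greatest rise of the 12 after CDK6. RRM2 was lower in VCaP-CT, with log2 fold changes of -1.51 ± 0.099 in their own medium (adjusted p = 1.77e-07), -1.16 ± 0.098 at 0.1 nM T (adjusted p = 2.09e-06, and -1.04 ± 0.061 without replicate 2) and -0.67 ± 0.097 at 10 nM T (adjusted p = 0.000189). On depletion its -0.35 ± 0.096 did not pass (adjusted p = 0.0227), and without replicate 2 it did (-0.47 ± 0.06, adjusted p = 5.44e-06). RRM1, the other subunit, gave -0.18 and 0.21 in these comparisons and 0.05 between the lines in their own medium, and passed in none with all libraries. Without replicate 2 RRM1 fell on depletion (-0.27, adjusted p = 9.93e-05), rose on rechallenge (0.21, adjusted p = 0.000255), and was higher in VCaP-CT at 0.1 nM T (0.32, adjusted p = 5.76e-06) and at 10 nM T (0.26, adjusted p = 1.67e-05).

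UHRF1 (ENSG00000276043.4, chromosome 19, 4903080 to 4962154), which carries DNA methylation over to the new strand, had 726, 717 and 915 normalized counts in rechallenged VCaP-CT, 748, 739 and 762 in VCaP-CT at 0.1 nM T, 817, 845 and 922 in depleted VCaP-T and 1369, 1245 and 1059 in VCaP-T at 10 nM T. VCaP-T at 10 nM T held the 3 highest libraries, VCaP-CT at 0.1 nM T lay below depleted VCaP-T, and rechallenged VCaP-CT overlapped both. It fell on depletion (log2 fold change -0.51 ± 0.12, adjusted p = 0.00929, and -0.50 ± 0.10 without replicate 2), a call that was lost in 9 of the 12 fits without 1 library, and gave 0.069 ± 0.12 on rechallenge (adjusted p = 0.726). It was lower in VCaP-CT in their own medium (-0.71 ± 0.12, adjusted p = 0.000374) and at 10 nM T (-0.64 ± 0.12, adjusted p = 0.000969). TYMS, thymidylate synthase, was lower in VCaP-CT in their own medium (-0.39 ± 0.11, adjusted p = 0.00995).

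Of the 19 genes of G2 and mitosis, few were called on a change of T with all libraries. On depletion 1 fell (MYBL2) and 1 rose (CDC25C), with a median log2 fold change of -0.17, and on rechallenge 2 rose (MYBL2 and AURKA), with a median of 0.12. Of all genes 3.83% fell and 6.15% rose on depletion, and 7.07% rose on rechallenge. Without replicate 2, 12 fell on depletion and 1 rose, and 8 rose on rechallenge and 2 fell (CDC25C and TOP2A). Of all genes 12.6% then fell and 14.4% rose on depletion, and 19% rose and 17.6% fell on rechallenge. Against VCaP-T, VCaP-CT had 3 of the 19 higher and 1 lower in their own medium (14.8% and 15.7% of all genes). The counts were 8 higher and 1 lower at 0.1 nM T (13% and 16.4%), and 6 higher and 0 lower at 10 nM T (12% and 13.2%). Without replicate 2 these counts were 6 higher and 4 lower in their own medium, 11 and 1 at 0.1 nM T, and 8 and 4 at 10 nM T. In the same order 26.7%, 23.2% and 24.7% of all genes were then higher, and 26.7%, 24.4% and 23.2% lower.

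CDC25C (ENSG00000158402.18, chromosome 5, 138285265 to 138338355), the phosphatase that activates CDK1 with cyclin B at the entry to mitosis, was the one gene of the 50 that rose on depletion and had 2758, 2628 and 2604 normalized counts in rechallenged VCaP-CT, 3316, 3333 and 3341 in VCaP-CT at 0.1 nM T, 1713, 2196 and 1779 in depleted VCaP-T and 1388, 1422 and 1439 in VCaP-T at 10 nM T. The 4 groups did not overlap, and the groups at 0.1 nM T were the higher ones in either line. It rose on depletion by 0.42 ± 0.09 on the log2 scale (adjusted p = 0.0065, and 0.30 ± 0.049 with adjusted p = 9.33e-05 without replicate 2), a call that was lost in 9 of the 12 fits without 1 library. On rechallenge the value was -0.32 ± 0.089 (adjusted p = 0.0196, or adjusted p = 4.46e-06 without replicate 2). It was higher in VCaP-CT by 1.23 ± 0.09 in their own medium (adjusted p = 4.71e-07), 0.81 ± 0.089 at 0.1 nM T (adjusted p = 1.74e-05, and 0.93 ± 0.049 without replicate 2) and 0.91 ± 0.09 at 10 nM T (adjusted p = 8.87e-06).

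CCNB1 (ENSG00000134057.14, chromosome 5, 69167010 to 69178245), cyclin B1, the partner of CDK1 in mitosis, had 12429, 11786 and 11768 normalized counts in rechallenged VCaP-CT, 10189, 10928 and 9995 in VCaP-CT at 0.1 nM T, 6781, 9333 and 6717 in depleted VCaP-T and 8114, 8179 and 8552 in VCaP-T at 10 nM T. Every VCaP-CT library lay above every VCaP-T library. It was higher in VCaP-CT by 0.53 ± 0.11 at 10 nM T (adjusted p = 0.00278) and 0.45 ± 0.11 at 0.1 nM T (adjusted p = 0.0073, and 0.62 ± 0.047 without replicate 2), with 0.32 ± 0.11 in their own medium (adjusted p = 0.0356). On depletion it gave -0.12 ± 0.11 (adjusted p = 0.463), and -0.30 ± 0.047 without replicate 2 (adjusted p = 5.71e-05). CDK1 itself passed in no comparison with all libraries, and was higher in VCaP-CT at 0.1 nM T without replicate 2 (0.27, adjusted p = 0.000258).

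CDK1 (ENSG00000170312.15, chromosome 10, 60778331 to 60794852), the mitotic kinase, had 7264, 7474 and 6560.0 normalized counts in rechallenged VCaP-CT, 6704, 7017 and 6565 in VCaP-CT at 0.1 nM T, 5437, 8159.8 and 5773 in depleted VCaP-T and 6854, 6982 and 7239 in VCaP-T at 10 nM T. Its log2 fold changes between the lines were -0.055 ± 0.13 in their own medium (adjusted p = 0.756) and 0.015 ± 0.13 at 10 nM T (adjusted p = 0.941, 95% interval [-0.27 to 0.30]). On depletion it gave -0.12 ± 0.13 (adjusted p = 0.523), with replicate 2 the highest of the 12 libraries, and -0.33 ± 0.054 without it (adjusted p = 9.73e-05). CCNA2 (ENSG00000145386.9, chromosome 4, 121816444 to 121823933), cyclin A2, the partner of CDK2 and then CDK1, had 3484, 3157 and 3134 normalized counts in rechallenged VCaP-CT, 3085, 3342 and 3115 in VCaP-CT at 0.1 nM T, 1814, 2202 and 2024 in depleted VCaP-T and 2392, 2503 and 2509 in VCaP-T at 10 nM T. Every VCaP-CT library lay above every VCaP-T library, and the difference was 0.37 ± 0.083 in their own medium (adjusted p = 0.00365), 0.66 ± 0.084 at 0.1 nM T (adjusted p = 5.64e-05, and 0.73 ± 0.062 without replicate 2) and 0.40 ± 0.083 at 10 nM T (adjusted p = 0.00246).

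PLK1 (ENSG00000166851.14, chromosome 16, 23677656 to 23690367), a kinase of mitotic entry and the spindle, had 3428, 3455 and 3956 normalized counts in rechallenged VCaP-CT, 3251, 3364 and 3094 in VCaP-CT at 0.1 nM T, 2033, 1952 and 2156 in depleted VCaP-T and 2634, 2458 and 2472 in VCaP-T at 10 nM T. It too was higher in every VCaP-CT library, by 0.36 ± 0.079 in their own medium (adjusted p = 0.00282), 0.66 ± 0.079 at 0.1 nM T (adjusted p = 3.53e-05, and 0.63 ± 0.064 without replicate 2) and 0.52 ± 0.079 at 10 nM T (adjusted p = 0.000266). AURKA (ENSG00000087586.17, chromosome 20, 56369389 to 56392337), the spindle pole kinase, had 5992, 5859.7 and 5735 normalized counts in rechallenged VCaP-CT, 4579, 4921 and 4682 in VCaP-CT at 0.1 nM T, 3446, 4035 and 3575 in depleted VCaP-T and 4360.1, 4412 and 4548 in VCaP-T at 10 nM T. The 4 groups did not overlap, with rechallenged VCaP-CT highest and depleted VCaP-T lowest. It rose on rechallenge by 0.31 ± 0.074 (adjusted p = 0.0092), and was higher in VCaP-CT at 0.1 nM T (0.36 ± 0.074, adjusted p = 0.002, and 0.43 ± 0.046 without replicate 2) and at 10 nM T (0.40 ± 0.074, adjusted p = 0.00109). AURKB, its relative at the centromere, was lower in VCaP-CT.

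AURKB (ENSG00000178999.12, chromosome 17, 8204733 to 8210600) had 735, 704 and 804 normalized counts in rechallenged VCaP-CT, 699, 676 and 683 in VCaP-CT at 0.1 nM T, 934, 1503 and 892 in depleted VCaP-T and 1124, 1076 and 1095 in VCaP-T at 10 nM T. Every VCaP-CT library lay below every VCaP-T library. It was lower in VCaP-CT, with log2 fold changes of -0.68 ± 0.16 in their own medium (adjusted p = 0.00468) and -0.69 ± 0.16 at 0.1 nM T (adjusted p = 0.0044, and -0.41 ± 0.065 without replicate 2), and its -0.55 ± 0.16 at 10 nM T did not pass (adjusted p = 0.0171). Without replicate 2 the value at 10 nM T passed too (adjusted p = 1.97e-07). BUB1B (ENSG00000156970.12, chromosome 15, 40161023 to 40221136), a protein of the spindle checkpoint, had 4756, 4827 and 4515 normalized counts in rechallenged VCaP-CT, 4623, 4965 and 4682 in VCaP-CT at 0.1 nM T, 3214, 2202 and 3358 in depleted VCaP-T and 3685, 3839 and 4062 in VCaP-T at 10 nM T. Every VCaP-CT library lay above every VCaP-T library. It was higher in VCaP-CT at 0.1 nM T by 0.70 ± 0.13 (adjusted p = 0.000898, and 0.54 ± 0.053 without replicate 2, the lowest library), with 0.30 ± 0.13 in their own medium (adjusted p = 0.0763).

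MKI67 (ENSG00000148773.13, chromosome 10, 128096659 to 128126385), the proliferation antigen Ki-67, had 17709, 18834 and 17382 normalized counts in rechallenged VCaP-CT, 16364, 16402 and 16623 in VCaP-CT at 0.1 nM T, 17607, 5926 and 17922 in depleted VCaP-T and 20838, 20621 and 21610.5 in VCaP-T at 10 nM T. Replicate 2 of depleted VCaP-T was far below every other library, and the other 11 formed 4 groups of which depleted VCaP-T and rechallenged VCaP-CT overlapped. On depletion the log2 fold change was -0.60 ± 0.29 (adjusted p = 0.159) with it and -0.24 ± 0.042 (adjusted p = 0.000133) without it. On rechallenge it was 0.13 ± 0.29 (adjusted p = 0.799, or adjusted p = 0.008 without that library). Between the lines in their own medium it was -0.35 ± 0.29 (adjusted p = 0.354, or adjusted p = 1.31e-07 without it).

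MYBL2, the transcription factor B-MYB, fell on depletion (log2 fold change -0.39 ± 0.083, adjusted p = 0.00693, and -0.45 ± 0.06 without replicate 2), rose on rechallenge by 0.41 ± 0.083 (adjusted p = 0.0038), and was higher in VCaP-CT at 0.1 nM T (0.35 ± 0.083, adjusted p = 0.00459, and 0.42 ± 0.06 without replicate 2) and at 10 nM T (0.37 ± 0.083, adjusted p = 0.00374). BUB1, a checkpoint kinase, was higher in VCaP-CT at 0.1 nM T (0.38 ± 0.085, adjusted p = 0.00368, and 0.30 ± 0.058 without replicate 2). The other 8 genes of this list passed in no comparison with all libraries. They were CCNB2, CDC25B, CDC20, CDKN3, UBE2C, BIRC5, FOXM1 and TOP2A, with depletion values of -0.38 for FOXM1 to 0.23 for CDKN3. TOP2A, which untangles replicated DNA, gave -0.17 on depletion (-0.018 without replicate 2) and -0.27 on rechallenge, and FOXM1 gave -0.38 with replicate 2 and -0.12 without it.

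Over the 50 genes, VCaP-CT in its own medium had 18 lower and 4 higher than VCaP-T in its own, where 15.7% of all genes were lower and 14.8% higher, and the medians were -0.22 over the 50 and 0.0008 over all genes. At 0.1 nM T 8 were lower and 10 higher (16.4% and 13% of all genes), and at 10 nM T 7 were lower and 9 higher (13.2% and 12% of all genes). Without replicate 2 of depleted VCaP-T the counts were 26 lower and 8 higher in their own medium (26.7% and 26.7% of all genes), 12 and 18 at 0.1 nM T (24.4% and 23.2%), and 19 and 16 at 10 nM T (23.2% and 24.7%). In their own medium the genes then added were E2F1, E2F7, E2F8, MCM3, MCM6, CDC20, BIRC5 and MKI67 as lower and E2F3, CCNB1, BUB1B and FOXM1 as higher. At 0.1 nM T CCND1, RB1, ORC1 and TYMS were added as lower and MCM3, MCM4, MCM6, PCNA, RRM1, CDK1, UBE2C and FOXM1 as higher. At 10 nM T CCND1, CDK4, RB1, E2F7, CDKN2C, MCM7, CDC6, TYMS, CCNB2, AURKB, MKI67 and TOP2A were added as lower and CCND3, E2F1, MCM6, PCNA, RRM1, BUB1B and FOXM1 as higher. By the study's thresholds CDK6, RRM2 and CCNE1 were lower and CDKN1B and CDC25C higher in their own medium (7.06% and 5.61% of all genes by this rule). CDK6 and RRM2 were lower and CDKN1B higher at 0.1 nM T (8.68% and 3.62%), and CDK6 and CCNE1 were lower and CDKN1B higher at 10 nM T (7.08% and 3.17%). Of the 50 genes 36% were thus lower in VCaP-CT in their own medium, more than the 15.7% of all genes, and 52% without replicate 2, against 26.7%. At 0.1 nM T the 16% with it and 24% without it lay near the shares of all genes. At 10 nM T the 14% with it lay near the 13.2% of all genes, and the 38% without it lay above 23.2%. On the higher side, the 10 genes at 0.1 nM T and 9 at 10 nM T were larger shares than 13% and 12%. Without replicate 2 the 18 and 16 were likewise larger shares than 23.2% and 24.7%. In their own medium the 4 higher with it and 8 without it were smaller shares than 14.8% and 26.7%. At 0.1 nM T the sign turned without it for 10 genes, CCNE2, E2F1, E2F7, E2F8, MCM2, CDT1, PCNA, UBE2C, MKI67 and TOP2A, of which PCNA (0.31) and UBE2C (0.25) were then higher in VCaP-CT. The groups did not overlap for 31 genes on the lower side and 9 on the higher side in their own medium (34.4% and 34.6% of all genes), 14 and 15 at 0.1 nM T (26.5% and 25.9%), and 22 and 19 at 10 nM T (30.6% and 31.1%). These 3 comparisons share groups with each other and with the 2 within a line.

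**Figure D5:**
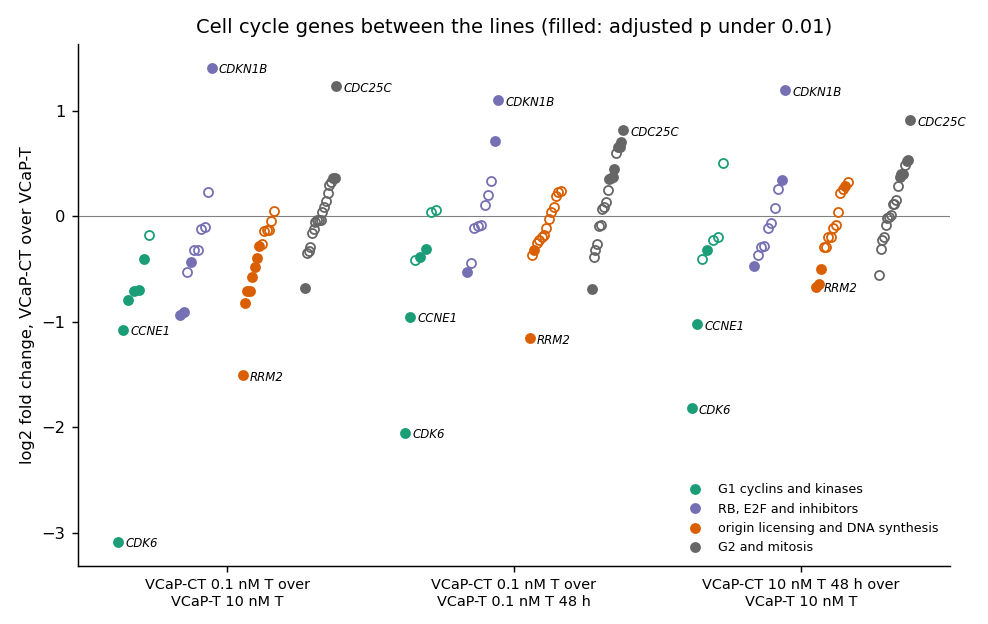
Log2 fold change of VCaP-CT over VCaP-T for 50 cell cycle genes in their own medium, at 0.1 nM T and at 10 nM T (left to right), in columns by role and sorted within a column, filled where the adjusted p was under 0.01. In each comparison CDK6 and CCNE1 lie among the lowest points, CDKN1B and CDC25C lie highest, and most grey mitotic genes lie above most green G1 cyclins and kinases.

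Of 40 further replication genes, 6 fell and 0 rose on depletion (median log2 fold change -0.22, against shares of 3.83% and 6.15% of all genes), led by MCM10 (-0.77 ± 0.096, adjusted p = 0.00022), which recruits the polymerase at origins, and MCM8 (-0.76 ± 0.15, adjusted p = 0.00358), a helicase of repair. On rechallenge 4 rose and 0 fell (median 0.20), led by CHAF1B (0.36 ± 0.063, adjusted p = 0.00145), a subunit of the chromatin assembly factor, and CDC45 (0.46 ± 0.088, adjusted p = 0.00243), which activates the helicase. In their own medium 16 were lower in VCaP-CT and 2 higher, with RFC3 (-0.66), of the clamp loader, and MCM10 (-0.81) lower, and CHAF1B (0.25) higher. Of all genes 7.07% rose and 7.19% fell on rechallenge, and 15.7% were lower and 14.8% higher in their own medium. Without replicate 2 the counts were 26 and 0 on depletion, 22 up and 1 down on rechallenge, and 28 lower and 4 higher between the lines. In the same order the shares of all genes were then 12.6% and 14.4%, 19% and 17.6%, and 26.7% and 26.7%.

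Of 43 further mitotic genes, 42 were tested, and 5 fell and 0 rose on depletion (median -0.21, against 3.83% and 6.15% of all genes), led by ANLN (-0.69 ± 0.12, adjusted p = 0.0018) and PRC1 (-0.44 ± 0.089, adjusted p = 0.00458), both needed for cytokinesis. On rechallenge 1 rose, MELK (0.41 ± 0.072, adjusted p = 0.00136), a mitotic kinase, and 0 fell, where 7.07% of all genes rose and 7.19% fell. At 0.1 nM T 14 were higher in VCaP-CT and 2 lower (13% and 16.4% of all genes), with KIF20A (0.98), a kinesin of the central spindle, and CCNF (0.67), cyclin F, higher and NDC80 (-0.53) and CENPA (-0.50), of the kinetochore and the centromere, lower. All these named genes were also called without replicate 2. In their own medium the counts were 7 higher and 5 lower (14.8% and 15.7% of all genes), and at 10 nM T 6 and 2 (12% and 13.2%). Without replicate 2, 23 fell on depletion, 6 rose and 4 fell on rechallenge, and 18 were higher and 15 lower in their own medium, 26 and 5 at 0.1 nM T, and 18 and 9 at 10 nM T. Of all genes 12.6% then fell on depletion, and 19% rose and 17.6% fell on rechallenge. The shares higher and lower were 26.7% and 26.7% in their own medium, 23.2% and 24.4% at 0.1 nM T, and 24.7% and 23.2% at 10 nM T.

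Of 25 further RB, DREAM and CDK regulators, 22 were tested. On depletion 1 rose, MYC (0.43 ± 0.076, adjusted p = 0.00224), a growth-promoting transcription factor, and 0 fell, where 6.15% of all genes rose and 3.83% fell. Without replicate 2, 3 rose (MYC, TFDP2 and RBL2) and 7 fell (TFDP1, CDKN1A, LIN54, FBXO5, E2F6, E2F4 and PKMYT1). On rechallenge MYC fell (-1.002 ± 0.077, adjusted p = 2.74e-06), while CDKN1A (0.94 ± 0.089, adjusted p = 1.43e-05), the CDK inhibitor p21, and TFDP1 (0.34 ± 0.072, adjusted p = 0.00443), the DNA-binding partner of E2F factors, rose. In their own medium 7 were lower in VCaP-CT, led by CDKN2B (-1.503), an inhibitor of CDK4 and CDK6, and TFDP1 (-0.65), and 3 were higher, led by MYC (0.68) and E2F5 (0.51). Of all genes 7.07% rose and 7.19% fell on rechallenge, and 15.7% were lower and 14.8% higher in their own medium. Without replicate 2, 7 rose and 4 fell on rechallenge, and 12 were lower and 5 higher in their own medium. Of all genes 19% and 17.6% then did so on rechallenge, and 26.7% and 26.7% in their own medium. On depletion 14.4% of all genes rose and 12.6% fell without replicate 2. MYC thus rose on depletion and fell on rechallenge, while the licensing genes that passed fell on depletion and rose on rechallenge.

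The response to T itself, taken as 10 nM T over 0.1 nM T in VCaP-CT minus the same in VCaP-T, differed between the lines for 0 of the 50 genes in edgeR's test in either direction, where 0.804% of all genes had a higher and 0.162% a lower response in VCaP-CT. Of the 50, 6 had an unadjusted p under 0.05, and DESeq2's test called 1, E2F3. The median difference was 0.017 on the log2 scale. Without replicate 2 of depleted VCaP-T the sign of the difference turned for 15 of the 50 genes, none of which passed in either fit. They were E2F8, CDKN1B, CDKN2C, CDC25A, RRM1, CCNB1, CCNB2, CDC25C, CDC20, AURKA, AURKB, UBE2C, BIRC5, FOXM1 and MYBL2. For CDC25A the difference of the responses was -0.029 ± 0.11 (95% interval [-0.26 to 0.21], and 0.033 without replicate 2), for CDC6 -0.066 ± 0.11 ([-0.31 to 0.18], and -0.15) and for CDK6 0.23 ± 0.28 ([-0.37 to 0.84], and 0.29). Without replicate 2, CCND1 (0.23 ± 0.048, adjusted p = 0.00266) and RRM2 (0.37 ± 0.082, adjusted p = 0.00464) had a greater response in VCaP-CT and E2F3 (-0.30 ± 0.056, adjusted p = 0.00113) a smaller one, where 5.62% of all genes were greater and 1.77% smaller. Of the further lists, CDKN1A alone passed with all libraries (0.78 ± 0.13, adjusted p = 0.00614).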

How the data were processed

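Poly(A) RNA of 12 libraries (30.2 to 40.8 M fragments) was analysed, 3 per group. The counts, as deposited, are whole fragments per gene that the authors made with STAR 2.5.4b on GRCh38 and featureCounts 1.6.2 on Gencode exons, per the file headers without strand and with fragments on more than 1 gene or place not counted. A second deposited file holds signal values, the authors' counts divided by size factors of DESeq2 1.24.0, which was checked against the counts (largest relative deviation 5.09e-15) and served only to name the 19742 genes of an alternative.

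Counts were analysed in R 4.3.3 with edgeR 4.0.16: TMM scaling, filterByExpr, and the quasi-likelihood F test, adjusted by Benjamini-Hochberg over 19162 genes, in 1 model of the 4 groups with no block. A gene was called at an adjusted p under 0.01. Comparisons were depletion, rechallenge, the lines in their own medium, at 0.1 nM T and at 10 nM T, and the difference between the responses. Normalized counts are TMM-scaled counts, SE is the log2 fold change over the root of the F statistic, and unadjusted 95% intervals use it with the t quantile at the test's degrees of freedom. The fit was tested on simulated data, with an outcome that is not reported here. The simulation did not hold the departure of depleted replicate 2 with exon length, so it does not bear on calls that this library moves.

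The genes, their roles and the further lists were chosen with earlier results of these data known. Values in every library are given for 13 core genes and, in each comparison, for up to 4 further called genes in each direction with the greatest log2 fold change. Of the further lists, the 2 genes with the smallest p in each direction are named, except for 1 that is not reported here. Alternatives were DESeq2 size factors, DESeq2 1.42.0's test, no filter, a replicate block, each comparison's own libraries, the genes of the authors' table, and leaving out each library.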

Additional observations from a re-analysis of the deposited data

How the results depend on the processing

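DESeq2 size factors and the genes of the authors' table changed no call of a named gene and no count by over 1.5 times, and no scaling moved the median of all genes by 0.1 or more. Without the filter 0 genes rose on depletion and 5 were lower at 0.1 nM T. DESeq2's test called 20 lower on depletion, 1 lower on rechallenge and 1 with a lower response in VCaP-CT. With each comparison's own libraries, 0 rose and 1 fell on depletion, 26 rose and 4 fell on rechallenge, 8 were higher and 29 lower in their own medium, 5 higher and 3 lower at 0.1 nM T, and 16 higher and 19 lower at 10 nM T, and this fit was not run for the response, which needs every group. Same-numbered libraries did not pair (correlations of their deviations -0.168 to 0.055), and with a replicate block 0 rose and 7 fell on depletion and 5 were lower at 0.1 nM T.

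Over fits that left out 1 library, 0 to 1 rose and 6 to 35 fell on depletion, 7 to 28 rose and 0 to 4 fell on rechallenge, 2 to 8 were higher and 11 to 26 lower in their own medium, 6 to 18 higher and 4 to 12 lower at 0.1 nM T, 4 to 16 higher and 4 to 19 lower at 10 nM T, and 0 to 2 greater and 0 to 1 smaller in response. Each highest count of these pairs but the 1 rise on depletion, which 3 fits share, came without replicate 2 of depleted VCaP-T. The fall of 11 genes on depletion became 6 without replicate 1 or 2 of VCaP-T at 10 nM T and 7 without replicate 3. The rise of 12 on rechallenge became 7 without any 1 of the VCaP-CT libraries at 0.1 nM T or rechallenged replicate 1 or 3. In their own medium 11 in place of 18 were lower without replicate 1 or 3 of VCaP-CT at 0.1 nM T or of VCaP-T at 10 nM T, and 2 in place of 4 higher without replicate 1 or 2 of VCaP-CT at 0.1 nM T or replicate 2 or 3 of VCaP-T at 10 nM T. At 0.1 nM T 4 in place of 8 were lower without any 1 library of VCaP-CT, and 6 in place of 10 higher without its replicate 2. At 10 nM T 4 in place of 9 were higher without rechallenged replicate 1 or replicate 1 or 2 of VCaP-T, and 4 in place of 7 lower without rechallenged replicate 1 or 2 or replicate 2 or 3 of VCaP-T. The difference of PCNA between the lines at 0.1 nM T was -0.027 on the log2 scale with all libraries, 0.31 without replicate 2 of depleted VCaP-T and -0.20 without replicate 1. The cause was not tested.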
